A study of Ipomoea batatas with 18 samples.

Results

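The change in root transcripts between 30 and 100 days of age was followed in Chuanshu 218, the high-starch sweetpotato (Ipomoea batatas) cultivar of a study of 2 cultivars. Of the 46840 unigenes in the table, which are transcripts of a de novo assembly, 26410 reached at least 1 FPKM in at least 3 of the 6 libraries compared and were kept. FPKM is the number of fragments per kilobase of transcript and scaled to the library's size. The 6 libraries were 3 of 30-day-old and 3 of 100-day-old Chuanshu 218 roots, and 3 libraries of 65-day-old roots of the same cultivar served to place the middle age. Libraries of the low-starch cultivar 15-94 at 30 and 100 days, 3 each, served as a second cultivar. The 3 libraries of 15-94 at 65 days entered the test across all libraries and are shown for 1 set of unigenes. Roots of both cultivars were grown 1 to a pot in a greenhouse under natural light, all libraries were TruSeq stranded mRNA libraries, and no group had a further treatment. The labels do not say which plant or how many plants gave a library, so a p-value here speaks only of the variation among libraries, some of which may be technical.

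Sweetpotato roots that swell into storage roots do so by secondary growth, in which cambial cells divide and the new parenchyma fills with starch. Starch is built in plastids from ADP-glucose, which ADP-glucose pyrophosphorylase supplies. Starch synthases join its glucose into chains, and branching enzymes add branches to the chains. Storage roots also lay down protein, mainly sporamin and beta-amylase. Which unigenes encode these proteins is not known here: the table gives IDs without gene names, and of the 46840 IDs 0 were found in the gene table of the reference assembly IBA_r1.0. The label "roots" could for the same reason not be checked against tissue markers, unigenes are described by their levels alone, and at most 2 IDs are named in each direction.

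Of the 26410 unigenes, 19058 (72.2%) had at least 1 FPKM in all 6 libraries. Another 156 passed through the 3 libraries of 100 days alone and 153 through the 3 of 30 days alone, so these had to differ between the ages. Only 5 unigenes were at 1 FPKM or more in every 100-day library and listed at 0 in every 30-day library, and 1 had the opposite listing. Just inside the limit, 529 unigenes had from 1 to under 1.1 FPKM at rank 3 of their 6 values, and just outside it 591 had from 0.9 to under 1 FPKM there.

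The libraries differed in depth within as well as between ages. The number of reads is not given, but small FPKM values are whole multiples of what a single read is worth, and comparing them gives the relative value of 1 read, provided that no further scaling was applied between libraries. On a log2 scale with 0 in the library of the smallest value, 30-day replicate 2, that value was 1.21 in 30-day replicate 1 and 0.56 in replicate 3, and it ran from 0.27 to 0.49 at 100 days. By this measure 30-day replicate 1 was the shallowest of the 6, and 24695 of the 26410 unigenes were above 0 there against 26092 to 26244 in the other 5.

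Most transcripts had levels within 2-fold at both ages. The difference in mean log2(FPKM + 1), 100 days minus 30 days, had a median of 0.07 and quartiles of -0.37 and 0.49, and 22446 unigenes (85.0%) lay within 2-fold. At least 2-fold higher at 100 days were 1993 of the 26410 (7.55%), against 2083 of the 32529 unigenes tested (6.4%). At least 2-fold lower were 1971 (7.46%), against 2330 of all tested (7.16%). Differences of at least 8-fold were seen in 63 higher and 21 lower unigenes, for which no share over all tested is given.

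None of these differences passed the test across all unigenes. With limma on log2(FPKM + 1), fitted to all 18 libraries of the series in 6 groups and adjusted by Benjamini-Hochberg over the 32529 unigenes tested, 0 were called higher and 0 lower at an adjusted p under 0.05 and 2-fold, as over all tested (0% called in each direction). The smallest adjusted p was 0.261. At an unadjusted p under 0.05 stood 2348 unigenes (8.89%; 7.87% of all tested). Of these, 901 were at least 2-fold higher at 100 days (3.41%; 2.95% of all tested) and 1047 at least 2-fold lower (3.96%; 3.45% of all tested). The median standard error of a difference was 0.53 (log2). A fit of the high-starch libraries of 30 and 100 days alone also called 0. With array weights, which let each library count by its estimated precision, 598 of the 26410 were called higher (2.26%) and 863 lower (3.27%). Over all tested these calls numbered 641 (1.97%) and 969 (2.98%), and the weights of the 30-day replicates were 0.377, 0.654 and 3.88.

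In 1023 unigenes all 3 libraries of 100 days lay above all 3 of 30 days with a difference of at least 2-fold (3.87%; 3.3% of all tested), and in 1016 all 3 lay below (3.85%; 3.34% of all tested). They are called separated here. The separated made up 51.3% of the unigenes at least 2-fold higher and 51.5% of those at least 2-fold lower. Over all tested, 1074 of the 2083 at least 2-fold higher were separated, and 1087 of the 2330 at least 2-fold lower. The median difference was 1.30 among the higher and -1.41 among the lower. At 4-fold and over there were 133 higher and 193 lower separated unigenes, and at 8-fold and over 45 and 19. Shares over all tested are not given at these limits.

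The separated unigenes were spread over the whole range of abundance. Under 2 FPKM, by the mean of the 6 libraries, 138 of 4053 unigenes (3.40%) were higher and 82 (2.02%) lower. From 5 to 20 FPKM the numbers were 379 (4.24%) and 389 (4.35%) of 8942. At 200 FPKM and over they were 30 (4.70%) and 33 (5.17%) of 638. Shares over all tested are not given by class, so these counts only describe where the separated unigenes lay. The median difference of all unigenes in a class went from 0.15 under 2 FPKM to -0.06 between 50 and 200 FPKM, and the mean value of 1 read was higher at 30 days. The part of depth in this shift was not tested.

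**Figure D1:**
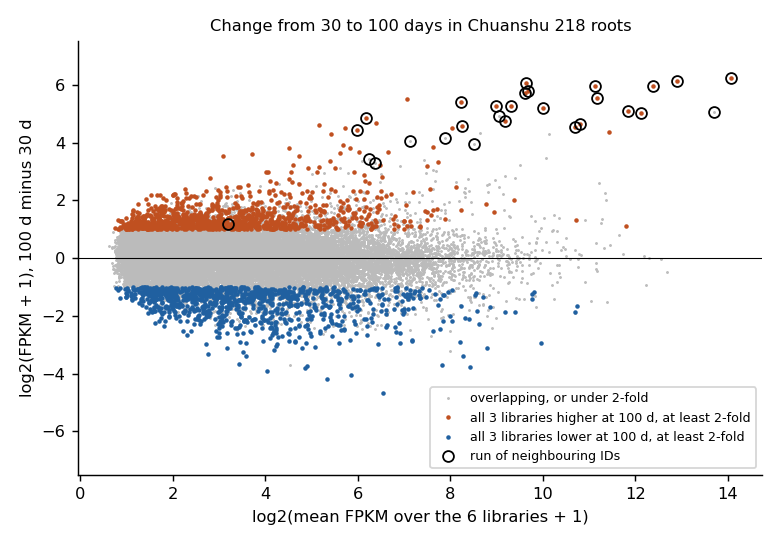
Change from 30 to 100 days for 26410 unigenes of Chuanshu 218 roots: the vertical axis is the difference in mean log2(FPKM + 1), 100 days minus 30 days (n = 3 libraries each), and the horizontal axis the log2 of the mean FPKM plus 1. Orange and blue points are the 1023 and 1016 separated unigenes, grey points the rest, and open circles the 28 unigenes of 1 run of neighbouring IDs. The run holds 11 of the 12 first ranks upward and none of the 12 first ranks downward. Ranks are among separated unigenes averaging at least 10 FPKM at the higher age.

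The 2 unigenes with the largest difference upward, among separated unigenes averaging at least 10 FPKM at 100 days, were Iba_37901 and Iba_37875. Iba_37901 had 756.76, 15.30 and 4801.76 FPKM in 30-day replicates 1, 2 and 3 and 38361.13, 15451.29 and 43934.70 FPKM in the 100-day replicates. The 30-day libraries thus spread over more than the distance between the ages on the log scale, with replicate 2 lowest and replicate 3 highest, but none reached the lowest 100-day library. The log2 difference was 6.25 (SE 1.48, limma adjusted p = 0.285, n = 3 each). At 65 days it had 29333.91, 7753.97 and 10223.85 FPKM, all above the 30-day libraries.

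Iba_37875 had 379.23, 6.22 and 2442.81 FPKM at 30 days and 16369.64, 7238.05 and 19655.38 FPKM at 100 days. The order of the libraries was the same as for Iba_37901 at both ages. Its log2 difference was 6.14 (SE 1.48, limma adjusted p = 0.285, n = 3 each).

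The 2 unigenes with the largest difference downward, averaging at least 10 FPKM at 30 days, were Iba_37592 and Iba_14791. Iba_37592 had 71.07, 31.40 and 442.41 FPKM at 30 days and 6.65, 4.33 and 0.56 FPKM at 100 days. At 65 days it had 434.90 and 464.28 FPKM in replicates 1 and 3, but 6.28 FPKM in replicate 2, which lay with the 100-day libraries. The log2 difference was -4.66 (SE 1.30, limma adjusted p = 0.359, n = 3 each).

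Iba_14791 had 42.32, 129.15 and 54.62 FPKM at 30 days and 2.08, 5.0 and 1.90 FPKM at 100 days. Its spread within each age was small beside the distance between the ages. The log2 difference was -4.17 (SE 0.87, limma adjusted p = 0.265, n = 3 each). At 65 days replicate 3, with 194.27 FPKM, was above every 30-day library, while replicates 1 and 2 had 20.15 and 19.20 FPKM.

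Both unigenes with the largest upward difference belonged to 1 run of neighbouring IDs. Followed up and down the ID order from Iba_37901 through unigenes at least 2-fold higher at 100 days, the run spanned 31 consecutive ID numbers and held 28 of the 26410 unigenes. It was singled out after the values were seen, and its direction in the 6 libraries is a consequence of how it was drawn. Its differences ran from 1.18 to 6.25 with a median of 5.04 (log2), and 20 of the 28 were separated. The ranking by upward difference took only separated unigenes averaging at least 10 FPKM at 100 days. Of the 12 ranked first in it, 11 lay in the run, as did 20 of the 45 separated unigenes that were at least 8-fold higher. The sources used here do not say whether neighbouring IDs stand for similar sequences, among which reads could be split.

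The unigenes of the run moved together from library to library. Their summed level was 2983, 151 and 33778 FPKM in the 30-day replicates and 132313, 57104 and 174690 FPKM in the 100-day replicates. That was 0.278%, 0.0208% and 4.05% of the FPKM of all 26410 unigenes at 30 days against 14.8%, 6.17% and 17.9% at 100 days. At 30 days replicate 2 was the lowest and replicate 3 the highest library for all 28 unigenes. At 100 days replicate 2 was the lowest for all 28.

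The overlap in the other 8 came from the same pair of libraries. In all 8, 30-day replicate 3 was at or above 100-day replicate 2, and in 7 of them 100-day replicates 1 and 3 lay above every 30-day library. Without 30-day replicate 3 the limma fit called 26 of the 26410 unigenes higher (0.0984%) and 3 lower (0.0114%), against 26 (0.0799%) and 7 (0.0215%) of all tested. Of those 26, 23 were in the run, whose median difference was then 6.86. Without 30-day replicate 2 the median was 3.27 and 0 unigenes were called. That all 28 were higher at 100 days as deposited follows from how the run was drawn. They were also higher with median-of-ratios scaling, with quantile normalization and with relative depth as a covariate. These settings and the calls reuse the libraries that the run was drawn from and are no separate support.

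The run was at intermediate to high levels at 65 days. Its summed level at 65 days was 113746, 58170 and 39999 FPKM, 9.43%, 6.96% and 4.53% of the total. The 65-day mean lay between the other means in 23 of the 28, and in 11 all 3 libraries of 65 days were above all 3 of 30 days.

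**Figure D2:**
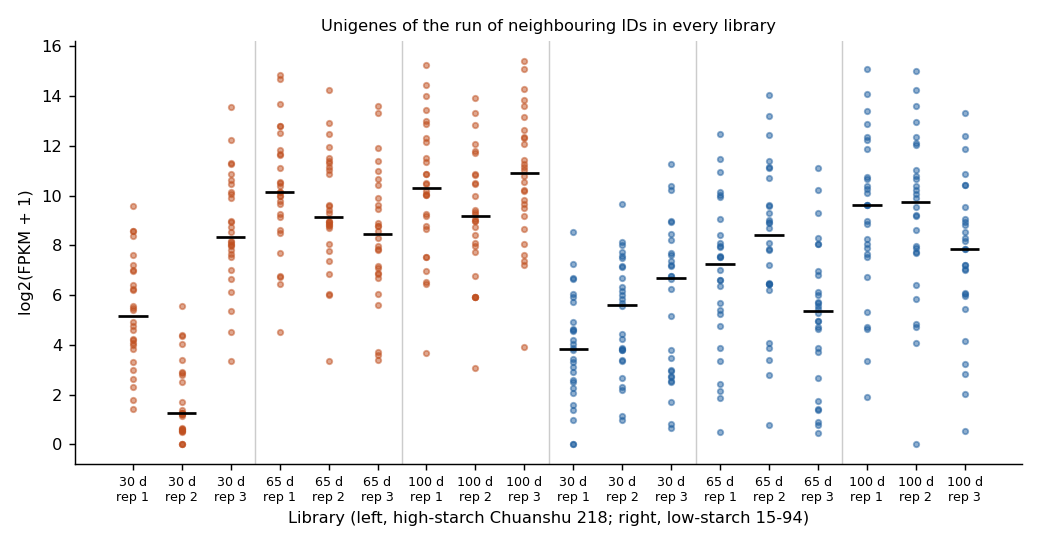
Levels, as log2(FPKM + 1), of the 28 unigenes of the run in 9 high-starch (left) and 9 low-starch (right) libraries; each point is 1 unigene and each bar the median of a library. The medians of the 100-day libraries lie above those of the 30-day libraries in both cultivars, and high-starch 30-day replicate 2 lies far below replicates 1 and 3.

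In the low-starch cultivar, whose libraries had no part in drawing the run, 27 of its 28 unigenes were at least 2-fold higher at 100 than at 30 days, and 25 were separated. Among all 26410 unigenes, 3.29% were separated and higher in that cultivar (3.25% of all tested). The run's unigenes moved together in the high-starch libraries, so they cannot be counted as 28 independent cases against that share. The run summed to 1112, 2796 and 8004 FPKM at 30 days and 95339, 99961 and 28224 FPKM at 100 days. The low-starch differences ran from -0.76 to 6.56 with a median of 3.77. For Iba_37901 the low-starch difference was 5.14 (SE 1.48, limma adjusted p = 0.312). For Iba_37875 it was 5.17 (SE 1.48, limma adjusted p = 0.31), so neither passed the test in that cultivar.

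Single unigenes of the run differed between the cultivars. At 100 days 4 averaged over 10-fold more FPKM in Chuanshu 218 and 1 over 10-fold more in 15-94. The unigene at rank 3 by upward difference had 1394.70, 618.73 and 2485.91 FPKM in Chuanshu 218 at 100 days and 23.95, 25.04 and 16.73 FPKM in 15-94. The 1 unigene with the opposite pattern had 11.62, 7.33 and 14.27 FPKM in Chuanshu 218 and 4775.31, 5256.68 and 1357.59 FPKM in 15-94. These were picked after their values were seen and are descriptions.

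Outside the run, the largest upward difference in the ranking was at rank 9, with 5.49 (log2). This unigene had 28.10, 0.20 and 1.95 FPKM at 30 days and 307.19, 379.72 and 78.82 FPKM at 100 days. At 65 days it had 430.49 FPKM in replicate 1 and 2.49 and 3.43 FPKM in replicates 2 and 3. In the low-starch cultivar it was already high at 30 days, with 285.29, 29.76 and 348.50 FPKM, and had 153.74, 347.15 and 330.12 FPKM at 100 days.

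Among the unigenes with lower levels at 100 days, the one at rank 6 had the tightest 30-day values of those described here. It had 636.32, 590.97 and 634.93 FPKM at 30 days and 18.38, 139.62 and 34.24 FPKM at 100 days, a log2 difference of -3.76. At 65 days replicates 1 and 3 had 660.18 and 384.08 FPKM and replicate 2 had 147.71 FPKM. In the low-starch cultivar it had 523.16, 306.78 and 398.26 FPKM at 30 days and 152.81, 274.29 and 92.27 FPKM at 100 days, so those libraries did not overlap either.

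The unigene at rank 3 downward had 250.56, 63.27 and 11.46 FPKM at 30 days and 0.22, 11.19 and 2.06 FPKM at 100 days, where 30-day replicate 3 and 100-day replicate 2 almost met. The low-starch values were 675.48, 99.42 and 239.26 FPKM at 30 days and 1.16, 16.07 and 1.07 FPKM at 100 days, a difference of -5.90 (log2), larger than the -4.04 of Chuanshu 218. Over the 12 separated unigenes ranked first in each direction, differences ran from 5.25 to 6.25 upward and from -3.31 to -4.66 downward. The low-starch difference had the same sign in all 12 of the higher and in 11 of the 12 lower. Of the 12 higher, 11 belonged to the run, whose unigenes moved together. Of all 26410 unigenes, 51.3% had a higher and 45.0% a lower mean at 100 days in the low-starch cultivar.

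Neighbouring IDs also shared their direction elsewhere in the table. For 113 of the 1023 separated higher unigenes (11.0%) the next of the 26410 unigenes in ID order was separated and higher too, and without the run this was 9.77%, against 3.87% of all. For the separated lower it was 169 of 1016 (16.6%), against 3.85% of all. The longest unbroken row of separated lower unigenes held 9 consecutive IDs, with differences from -1.57 to -2.32. They summed to 4260, 7178 and 5432 FPKM at 30 days and 1022, 1633 and 2173 FPKM at 100 days. In the low-starch cultivar 8 of the 9 had a lower mean at 100 days, but 0 of the 9 were separated.

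The most abundant unigenes held more of the FPKM in the 100-day libraries. The 10 highest unigenes of each library took 6.60%, 5.93% and 6.40% of the FPKM of the 26410 unigenes at 30 days and 14.0%, 7.73% and 17.4% at 100 days. The libraries did not overlap, and the means were 6.31% ± 0.343 and 13.0% ± 4.91 (SD, n = 3 each, exact permutation test, two-sided, p = 0.1, the smallest that 3 against 3 can give). At 65 days the mean was 10.3% ± 1.66. With the run left out, an alternative added after the data were seen, the values were 6.62%, 5.93% and 5.40% at 30 days and 5.69%, 5.45% and 8.11% at 100 days, which overlap.

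Of the 10 unigenes with the highest mean at each age, 4 were shared. The 10 of 100 days included 6 of the run and the 10 of 30 days 1. Between 47 and 112 unigenes reached 1000 FPKM in a 30-day library and between 72 and 94 in a 100-day library. Of the run, 0, 0 and 9 unigenes reached that level in the 30-day replicates and 18, 10 and 18 in the 100-day replicates. The 10 highest of 30 days summed to 4.49% to 5.83% of the FPKM at 30 days and 4.33% to 7.47% at 100 days. Within that sum, 7 of the 10 had a lower mean log2(FPKM + 1) at 100 days, 3 of them by at least 2-fold and 1 separated, while 1 of the 10 belonged to the run. Choosing the 10 by their 30-day mean favours lower values at 100 days. Of all 26410 unigenes, 7.46% were at least 2-fold lower and 3.85% separated and lower.

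Libraries of 30 days differed among themselves as much as they differed from those of 100 days. Between 2 replicates of 30 days, 6533 to 12483 unigenes were at least 2-fold apart, on average 9383 over 3 pairs. Between 2 replicates of 100 days there were 4142 to 6181, on average 4913. Between a 30-day and a 100-day library there were 5382 to 12717, on average 8249 over 9 pairs. The median SD within an age was 0.63 (log2) at 30 days and 0.41 at 100 days, and 71.6% of the unigenes had the larger SD at 30 days. The 30-day libraries also spanned the wider range of depth, and its part in this spread was not tested.

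**Figure D3:**
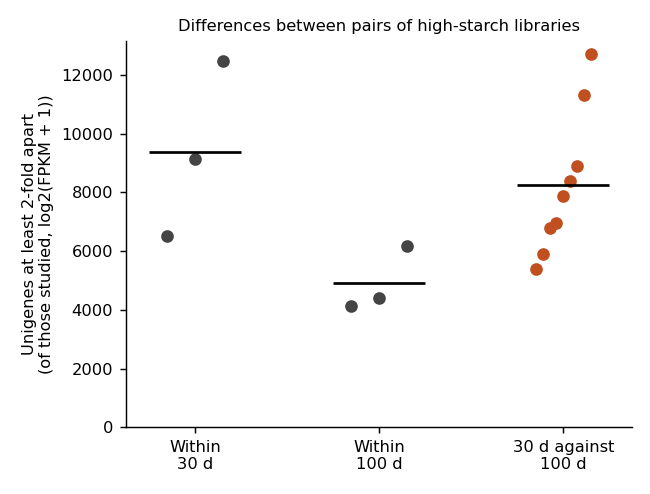
Number of the 26410 unigenes at least 2-fold apart between 2 high-starch libraries, for the 3 pairs within 30 days, the 3 pairs within 100 days and the 9 pairs across the ages; each point is 1 pair and each bar the mean. Pairs within 30 days (6533 to 12483) cover nearly the range of pairs across the ages (5382 to 12717), and pairs within 100 days lie lower.

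Correlations of log2(FPKM + 1) across the unigenes describe the same profiles. They were 0.759 to 0.871 within 30 days, 0.876 to 0.912 within 100 days and 0.728 to 0.895 across the ages. Each 30-day library was closest to a library of 65 days, replicate 1 to 65-day replicate 1 (0.892) and replicates 2 and 3 to 65-day replicate 3 (0.904 and 0.913). At 100 days, replicates 1 and 2 were closest to each other (0.912) and replicate 3 to 65-day replicate 2 (0.920).

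The 65-day libraries did not lie at 1 point between the ages. For the separated unigenes a position was computed for each 65-day library, with 0 at the 30-day mean and 1 at the 100-day mean of the unigene. The median position among the separated higher was 0.11 in replicate 1, 0.71 in replicate 2 and -0.03 in replicate 3. Among the separated lower it was 0.14, 0.62 and 0.07. Replicate 2 of 65 days was thus nearer to the 100-day mean and replicates 1 and 3 nearer to the 30-day mean in both directions.

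Of the 1023 separated higher unigenes, 789 were above every 30-day library in 65-day replicate 2, against 380 in replicate 1 and 215 in replicate 3. Of the 1016 separated lower, 731, 368 and 310 were below every 30-day library in replicates 2, 1 and 3. No share over all 26410 unigenes was taken, so these counts only compare the 65-day libraries with each other. The relative value of 1 read was 0.86, 0.08 and 0.68 in 65-day replicates 1, 2 and 3, so replicate 2 was also the deepest of them, and the part of depth in its position was not tested. The 65-day mean lay between the 30-day and the 100-day mean in 79.7% of the separated higher and 80.4% of the separated lower unigenes, against 40.6% of all 26410. Part of that gap follows from the choice, since unigenes far apart at 30 and 100 days leave more room between.

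**Figure D4:**
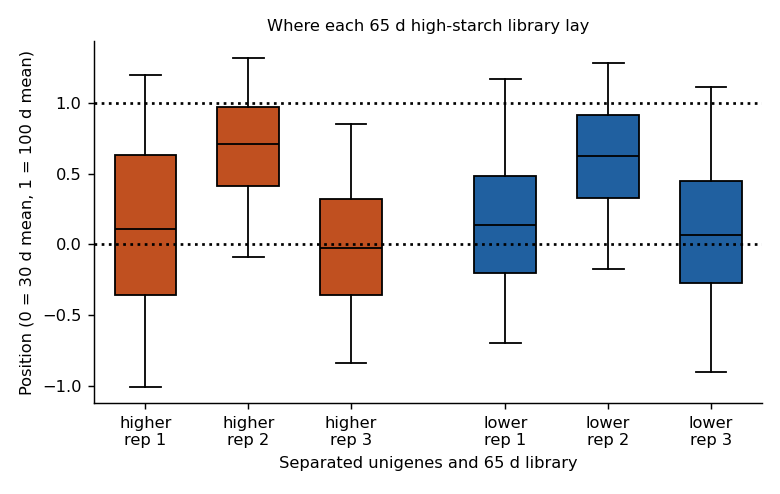
Position of each 65-day high-starch library between the 30-day mean (0) and the 100-day mean (1) of log2(FPKM + 1), over the 1023 separated higher (orange) and 1016 separated lower (blue) unigenes; boxes show quartiles and median, whiskers the 5th and 95th percentiles. Replicate 2 has medians of 0.71 and 0.62, and replicates 1 and 3 lie between -0.03 and 0.14.

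The low-starch cultivar asks how far the change from 30 to 100 days is shared. Its 6 libraries share none with the 6 of Chuanshu 218. Of the 1023 separated higher unigenes, 679 (66.4%) had a higher mean at 100 days in 15-94, against 51.3% of all 26410. Of the 1016 separated lower, 732 (72.0%) had a lower mean, against 45.0% of all. The separated higher had a median low-starch difference of 0.27 and the separated lower -0.38, against 0.02 for all. Across the 26410 unigenes the differences in the 2 cultivars had r = 0.32 (Spearman rho = 0.26), a description over unigenes, which are not independent replicates and share the depth of their libraries.

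The sharing varied with the libraries used. Without high-starch 30-day replicate 1, the shares of separated unigenes moving the same way were 50.9% for the higher and 53.6% for the lower, of which the first is near the 51.3% of all unigenes and the second above the 45.0%. Without low-starch 30-day replicate 1, where 1 read was worth 2.0 on the same log2 scale, more than in any other library, they were 53.2% and 60.7%, against 48.3% and 48.0% of all. Without high-starch 100-day replicate 3, where 1 read was worth 0.49, they were 57.7% and 62.2%. Without low-starch 100-day replicate 3 they were 61.8% and 65.4%. At a difference of at least 4-fold the shares were 85.0% and 87.0%, and 59.0% and 68.8% without high-starch 30-day replicate 1. The part of depth in the sharing was not tested.

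Separated in both cultivars were 81 higher and 93 lower unigenes. The 81 were 7.92% of the high-starch list and 9.31% of the 870 among the 26410 that were separated and higher in 15-94. The 93 were 9.15% of the high-starch list and 9.99% of the 931 separated and lower there. Over all 32529 tested, 1056 were separated and higher and 1074 separated and lower in 15-94. Of all 26410 unigenes, 3.29% were separated and higher and 3.53% separated and lower in the low-starch cultivar. Of the 81, 18 were in the run, and without the run the higher share was 63 of 1003 (6.28%). Higher in Chuanshu 218 and lower in 15-94 were 10 unigenes, 0.978% of the 1023, against the 3.53% of all. The reverse held for 8, 0.787% of the 1016, against the 3.29% of all.

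A difference between the cultivars in the change from 30 to 100 days was tested as an interaction. It passed for 0 of the 26410 unigenes (limma, adjusted p under 0.05 and 2-fold, 0% of all tested, smallest adjusted p = 0.920). At an unadjusted p under 0.05 stood 1341 (5.08%; 5.17% of all tested). The median standard error of the interaction was 0.75 (log2). For Iba_37592, with 386.09, 887.53 and 1449.15 FPKM at 30 days and 854.72, 289.65 and 515.44 FPKM at 100 days in the low-starch cultivar, the interaction was -4.01 (SE 1.84, limma adjusted p = 0.920). For Iba_37901 it was 1.1 (SE 2.09, limma adjusted p = 0.973).

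**Figure D5:**
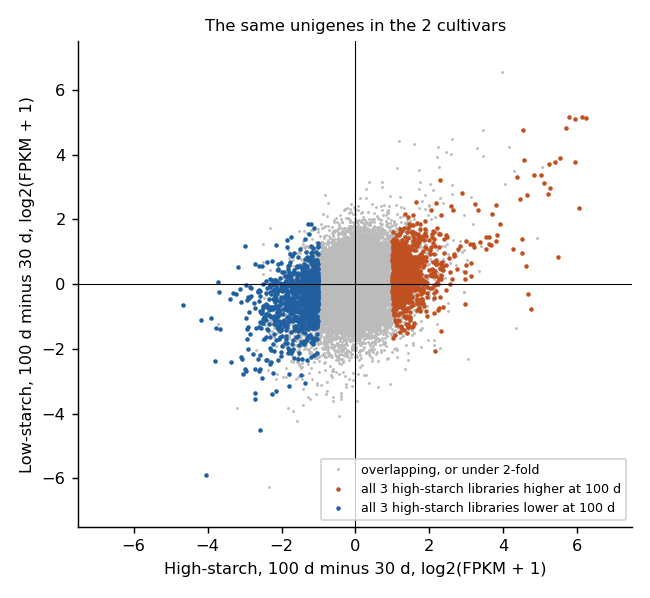
Change from 30 to 100 days in the low-starch cultivar (vertical) against the high-starch cultivar (horizontal) for 26410 unigenes, both as differences in mean log2(FPKM + 1), with 3 libraries per age and cultivar. Orange and blue points are the 1023 and 1016 separated unigenes of the high-starch cultivar, of which 66.4% and 72.0% lie on the same side of 0 in the low-starch cultivar.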

How the data were processed

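The authors deposited 1 table of FPKM values for 46840 unigenes in 18 libraries, and each column matched 1 library by its title. Per the submitters' processing notes edgeR was used, at an unstated version and step. The sources used here do not give the assembler, aligner or counter, or whether libraries were scaled to each other. Because FPKM is a normalized value, count models were left aside. On the log2(FPKM + 1) scale a change at low abundance comes out too small.

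The 32529 unigenes that reached 1 FPKM in 3 or more of the 18 libraries went into 1 limma 3.58.1 fit (R 4.3.3) of 6 groups, with the eBayes trend option and 12 residual degrees of freedom. The 26410 unigenes described are all among them. The relative value of 1 read came from the commonest ratio of low values between 2 libraries, and 97.4% of library pairs lay within 0.05 (log2) of the fitted values. Both steps were tested on simulated data. Absolute depth is unknown, and values therefore carry neither counting intervals nor floors. The unigenes named are the 2 per direction with the largest difference that are separated and average at least 10 FPKM at the higher age. Other ranks are described without an ID. Gene lists and tissue markers drawn up for the case that IDs carried names could not be used. Unigenes, lists and tests were chosen with earlier results of these data known. No 2 of the 9 high-starch libraries had a correlation over 0.920. Python 3.11.15, NumPy 2.4.6, SciPy 1.17.1, pandas 2.3.3 and Matplotlib 3.10.9 were used.

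The alternatives were a filter at 5 FPKM or none, a pseudocount of 0.1 or 0.5, a fit of the 26410 alone, 2 other scalings, no trend, the compared libraries alone, a replicate block, array weights, a 4-fold limit, other numbers of highest unigenes and leaving out each library. Relative depth as a covariate, omission of the run, leaving out low-starch libraries for the sharing, and a 4-fold limit without high-starch 30-day replicate 1 were chosen after seeing the data.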

Additional observations from a re-analysis of the deposited data

Results flagged for a closer look

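Unigenes that were separated and at least 2-fold apart between 30 and 100 days in opposite directions in the 2 cultivars were looked for. There were 10 that were higher at 100 days in Chuanshu 218 and lower in 15-94 (0.978% of the separated higher, against 3.53% of all 26410 unigenes separated and lower in 15-94), and 8 with the reverse (0.787% of the separated lower, against 3.29%). In all 18 the interaction had an unadjusted p under 0.05 by limma, which choosing them for opposite movement favours, and the smallest adjusted p was 0.920. They were of low to moderate level, with means from 1.77 to 28.0 FPKM over the 6 high-starch libraries, and 3 of the 18 averaged at least 10 FPKM. The one with the largest interaction had 6.81, 13.94 and 4.87 FPKM at 30 days and 0.44, 3.08 and 0.35 FPKM at 100 days in Chuanshu 218. In 15-94 it had 21.35, 10.99 and 22.19 FPKM at 30 days and 35.74, 55.41 and 35.93 FPKM at 100 days.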

How the results depend on the processing

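Over 18 other settings for the test, 16 gave 0 calls of the change in Chuanshu 218, and the smallest adjusted p ran from 0.000972 to 0.688. Array weights called 598 unigenes higher and 863 lower, with 4 of the higher in the run. For the same change they gave 1964 higher and 1987 lower at an unadjusted p under 0.05 and 2-fold. For the interaction they called 52. The weights ran from 0.352 to 3.88 and are estimated from 3 libraries per group. Leaving out 1 library gave 0 to 26 higher and 0 to 3 lower calls, both highest without 30-day replicate 3, and 0 to 0 for the interaction. The counts at an unadjusted p then ran from 601 to 1212 higher and from 610 to 1227 lower, lowest without 100-day replicate 1.

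The labels number replicates 1 to 3 in each group. Deviations of same-numbered libraries of 30 and 100 days from their group means had correlations of -0.031, -0.491 and 0.127. Among other-numbered pairs the highest were 0.538 (30-day replicate 1, 100-day replicate 2) and 0.503 (30-day replicate 2, 100-day replicate 3). The lowest was -0.516 (30-day replicate 1, 100-day replicate 3). Whether same-numbered libraries share a plant or batch is not in the labels and cannot be told from these values. A fit with the replicate block called 0 higher and 0 lower, with 1008 and 1137 at an unadjusted p, and 0 for the interaction. Among the 30-day libraries replicate 3 alone correlated best with its own number, and among the 100-day libraries none did.

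Separated unigenes numbered 664 higher and 677 lower with a filter at 5 FPKM, which keeps fewer unigenes, 133 and 193 at 4-fold, and 212 and 231 at 4-fold without 30-day replicate 1. Without 1 library, which leaves fewer comparisons to pass, they ran from 1148 to 2321 and from 1071 to 1883. They exceeded 1.5 times the main count without 30-day replicate 2 (2321 and 1574), 30-day replicate 3 (1817 higher), 100-day replicate 2 (1955 and 1883) and 30-day replicate 1 (1611 lower).

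The share moving the same way in the low-starch cultivar was 72.1% for the higher and 76.4% for the lower at 5 FPKM, and 85.0% and 87.0% at 4-fold, or 59.0% and 68.8% without 30-day replicate 1. The share of the lower was 67.6% and 69.0% with pseudocounts of 0.1 and 0.5. Without 1 library of either cultivar the shares ran from 50.9% to 75.8% and from 53.6% to 76.6%. The share with the 65-day mean between was 71.7% and 76.2% for the higher at these pseudocounts, 76.9% for the lower at 0.1, and 90.2% and 95.9% at 4-fold, or 89.2% and 94.8% without 30-day replicate 1. It ran from 73.6% to 86.2% and from 73.3% to 84.2% without 1 library. The gain of 6.74 percentage points in the share of the 10 highest unigenes was 0.435 without the run and 4.57 to 9.40 without 1 library. Where no reason is given, the cause was not tested. Shares over all tested are not given for the counts in this section, apart from those printed earlier.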
